A study of Mus musculus with 6 samples.

Results

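The 36 interferon response genes described here were measured in mouse liver, in 3 samples from wild-type mice and 3 from mice lacking SIRT7, each on its own 1-colour Affymetrix array. They are a list of genes that interferons are known to induce or that carry the response, chosen with earlier results of these data known. The list is divided into immunity-related and guanylate-binding GTPases, RNA sensors, STAT and IRF transcription factors, and effectors. A gene was used where a probe set carried its symbol and no other, and the probe set with the highest mean over 6 arrays stood for it. Of the 36 genes 32 had such a probe set, and all 32 lay above the expression filter, among 8343 genes tested of 12393 with a probe set of 1 symbol. The expression of Ddx58, Ifi44 and Xaf1 was not analysed here, and Isg15 was measured only by a probe set that also lists Gm9706.

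The groups differ in the Sirt7 allele, wild type or knock-out. The labels give no difference in treatment between samples, and they name no strain, age, sex, diet or way in which the allele was made. Whether each liver of a genotype is from a mouse of its own is also not stated, so the p-values reflect the spread among these 6 samples, and that spread may be technical.

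Interferons are cytokines that warn cells of infection. Type I interferon acts through a receptor that activates JAK1 and TYK2, and a complex that holds STAT2 and IRF9 then binds the interferon-stimulated response element, or ISRE, of its target genes. Interferon gamma uses its own receptor and acts through the gamma-activated sequence, or GAS. Liver cells express many of the induced genes at rest, and interferon signalling protects the liver from viruses.

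The promoters of the genes were searched in RefSeq (GRCm38.p6), where 29 of the 36 had at least 1 window, running from 250 bases before to 50 bases after a gene start. An ISRE core, GAAA followed by any 2 bases and GAAA again, read on both strands, occurred in 16 of the 29 genes (55.2%), against 3.99% of the 27025 genes in that table. A GAS core, TTCNNNGAA, which reads alike on both strands, occurred in 10 of 29 (34.5%), against 9.55% of all. Per window the shares were 44.4% against 3.44% for the ISRE core and 27.8% against 8.30% for the GAS core. Matches overlap where cores repeat, and a match is a match of letters, not a measured binding site.

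The stretches shown are those of the GTPase genes Igtp, Irgm2 and Irgm1, of which Igtp alone had groups that did not overlap, and of 5 effector genes that were each lowest, among wild-type livers, in replicate 1. ISRE and GAS cores are in capitals, each line reads 5′ to 3′ in the direction of the gene, and all bases lie upstream of the start.
Igtp, chr11:58199489-58199553, plus strand: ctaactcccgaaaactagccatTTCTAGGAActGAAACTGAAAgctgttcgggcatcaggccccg
Irgm2, chr11:58214880-58214944, plus strand: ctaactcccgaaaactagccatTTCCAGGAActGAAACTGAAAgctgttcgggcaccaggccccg
Irgm1, chr11:48871421-48871472, minus strand: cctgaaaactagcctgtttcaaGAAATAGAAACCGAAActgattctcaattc
Ifit1, chr19:34640763-34640835, plus strand: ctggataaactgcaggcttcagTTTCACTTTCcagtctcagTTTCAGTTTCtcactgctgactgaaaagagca
Ifit3, chr19:34583351-34583438, plus strand: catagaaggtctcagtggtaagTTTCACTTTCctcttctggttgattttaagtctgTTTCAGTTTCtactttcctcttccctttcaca
Rsad2, chr12:26456541-26456594, minus strand: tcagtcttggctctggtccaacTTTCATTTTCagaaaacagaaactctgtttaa
Bst2, chr8:71537565-71537630, minus strand: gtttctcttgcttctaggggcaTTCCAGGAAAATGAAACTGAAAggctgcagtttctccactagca
Isg15, chr4:156200853-156200918, minus strand: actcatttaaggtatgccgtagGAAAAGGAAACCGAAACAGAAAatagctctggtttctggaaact

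Igtp and Irgm2 are next to each other in the gene order, and their stretches are nearly the same. Counted from 1 at the 5′ end, 63 of 65 bases were identical and the differences were T26C and T56C, the Igtp base first. In both genes a GAS core is followed by an ISRE core, with the GAS core starting 45 bases upstream of the start in Igtp and 75 in Irgm2. Irgm1, on the same chromosome, held overlapping ISRE cores starting 30 and 24 bases upstream and no GAS core. Ifit1 and Ifit3 each held a pair of separate ISRE cores, Rsad2 held 1, and Isg15 held 3 that overlap. In Bst2 a GAS core overlapped the first of its ISRE cores. Of the 29 genes 8 had neither core in any window, Oasl1, Oasl2, Ifi44, Ifi47, Irf7, Irf9, Tap1 and Xaf1. The letters searched for are not in these windows, which says nothing of the factors that bind elsewhere.

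**Figure D1:**
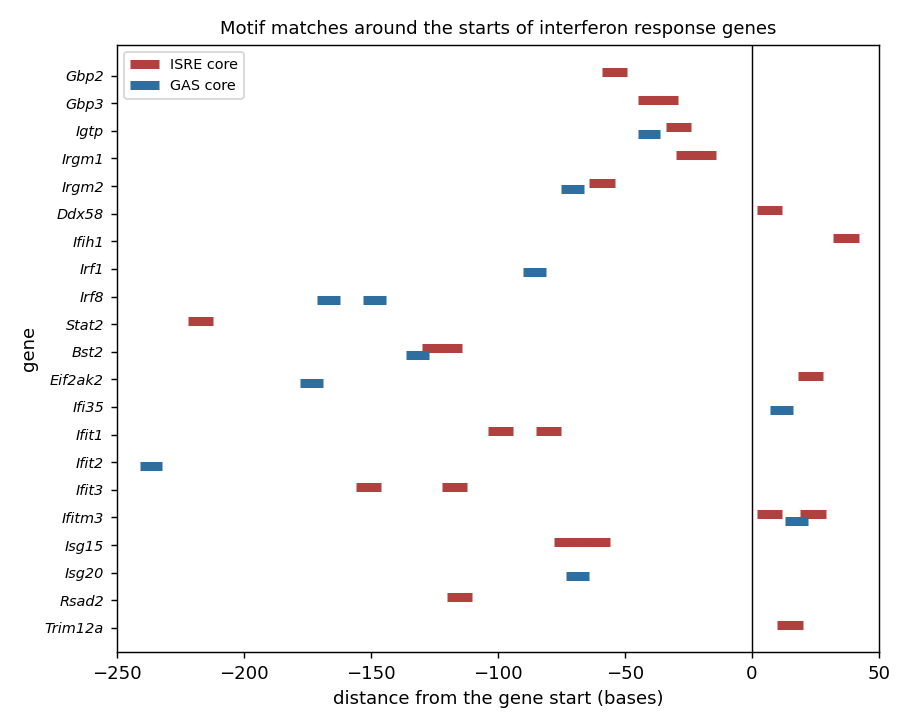
Positions of ISRE cores (red) and GAS cores (blue) relative to the gene start, in bases, for the 21 interferon response genes with a match between 250 bases before and 50 bases after it. The matches of Igtp, Irgm1, Irgm2, Gbp2 and Gbp3 lie within 75 bases upstream of the start, and those of Ifit1, Ifit3, Rsad2 and Bst2 farther upstream.

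Sirt7 itself was at log2 values of 9.85, 9.80 and 9.57 in wild-type livers and 2.38, 3.10 and 2.86 in knockout livers, so the genotype labels and the target gene match. Array medians lay between 5.69 and 5.77 on the log2 scale. Pearson correlations across the tested genes were 0.968 to 0.984 between wild-type arrays and 0.962 to 0.978 between knockout arrays. Wild-type replicate 3 reached 0.972 to 0.979 with the knockout arrays, above its 0.968 and 0.971 with wild-type replicates 1 and 2. Those replicates reached 0.949 to 0.976 with the knockout arrays, so by this measure the arrays did not group by genotype. These are correlations across genes, which are not replicates. The hepatocyte genes Alb, Apoa1 and Ttr had log2 values above 12 on every array.

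No interferon response gene passed the test between knockout and wild-type livers. Limma called 0 of the 32 genes higher and 0 lower at a Benjamini-Hochberg adjusted p under 0.05, where 0.024% of all genes tested were called in either direction. At an unadjusted limma p under 0.05, 4 genes were lower in knockout livers (12.5%), against 3.42% of all genes, and 0 were higher, against 3.04%. These 4 were Oasl2, Igtp, Ifih1 and Rtp4. All knockout values lay under all wild-type values in 6 genes (18.8%), against 5.48% of all genes, and in 0 genes did they all lie above, against 4.27%. The median difference, knockout minus wild type, was -0.201 log2 units over the 32 genes and -0.032 over all genes tested. Of the 32 differences 24 were below 0 (75.0%, against 54.6% of all genes) and 8 above. The genes were chosen with earlier results of these data known, so these shares describe the list and are not independent support for a difference. In a whole-liver sample, fewer cells of a type and less RNA per cell cannot be told apart.

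**Figure D2:**
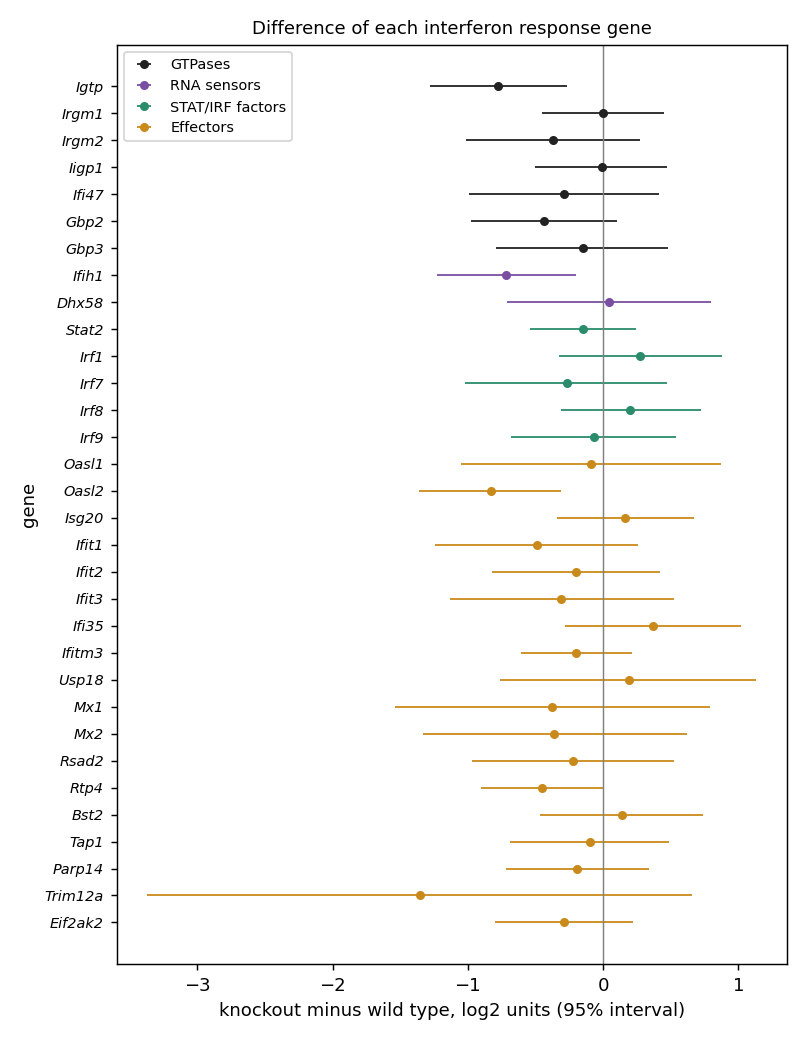
Knockout minus wild type in log2 units for each of the 32 genes, with its 95% confidence interval from limma (3 arrays per group). The intervals of Igtp, Ifih1 and Oasl2 lie below 0, that of Rtp4 ends at about 0, and that of Trim12a, from -3.37 to 0.66, is the widest.

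The immunity-related GTPases, which act on the vacuoles that enclose intracellular parasites and bacteria, were measured by 7 probe sets with means between 5.52 and 11.60, and none of them passed the test. Of the 7 GTPase genes 6 had a difference below 0, Iigp1 by only -0.01, where 54.6% of all genes were below 0. Their median difference of -0.292 was -0.04 without wild-type replicate 2, and limma called 0 at the adjusted threshold. Igtp, also known as Irgm3, a regulatory member of the family, was at 11.32, 11.80 and 11.16 in wild-type and 10.47, 10.69 and 10.79 in knockout livers. The groups did not overlap. It differed by -0.78 (SE 0.22, 1.71-fold lower, limma unadjusted p = 0.00747, adjusted p = 0.725), and by between -0.91 and -0.59 when any 1 array was left out.

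Irgm2, its neighbour with the near-identical promoter stretch, was at 9.34, 9.94 and 9.90 in wild-type livers and at 8.99, 9.88 and 9.21 in knockout livers. Knockout replicate 2 lay among the wild-type values, so the groups overlapped. The difference was -0.37 (95% interval -1.01 to 0.27, limma adjusted p = 0.816). Irgm1, the third regulatory GTPase, was at 9.47, 9.84 and 9.57 against 9.79, 9.68 and 9.43, with group means of 9.63 ± 0.19 and 9.63 ± 0.18 (SD, n = 3 each). Its difference of 0.00 had an interval of -0.45 to 0.45, so a change of the size seen in Igtp lies outside the interval, although the difference between these genes was not tested.

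Iigp1 and Ifi47 are effector GTPases that load onto pathogen vacuoles. Iigp1 was at 11.69, 11.74 and 11.40 in wild-type livers and 11.51, 11.91 and 11.36 in knockout livers. The groups overlapped throughout, with a difference of -0.01 (interval -0.50 to 0.47), and a second probe set of that gene differed by 0.10. Ifi47 was at 10.57, 11.06 and 10.01 against 9.80, 10.54 and 10.42, a difference of -0.29 (interval -0.99 to 0.41) over a wild-type range of 1.04.

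Guanylate-binding proteins are larger GTPases that attack pathogen membranes. Gbp2 was at 5.68, 6.11 and 5.41 in wild-type and 5.42, 5.46 and 5.02 in knockout livers, a difference of -0.44 (interval -0.98 to 0.10), with -0.21 on its other probe set. Wild-type replicate 3 lay just under the highest knockout values, so the groups overlapped. Gbp3 was at 6.98, 7.67 and 7.24 against 7.50, 7.28 and 6.65 and differed by -0.15 (interval -0.79 to 0.48). Wild-type replicate 2 was the highest of 6 arrays in 6 of the 7 GTPase genes, Iigp1 being the exception, and knockout replicate 1 or 3 was the lowest in all 7.

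Of the cytosolic RNA sensors, Ifih1 and Dhx58 were measured. Ifih1 encodes MDA5, which detects long double-stranded RNA. It was at 9.84, 9.96 and 9.70 in wild-type and 8.79, 9.06 and 9.51 in knockout livers, so that every knockout value was lower, although knockout replicate 3 came close. The difference was -0.72 (SE 0.23, 1.64-fold lower, limma unadjusted p = 0.012, adjusted p = 0.746). It lay between -0.91 and -0.55 when any 1 array was left out.

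Dhx58 encodes LGP2, a related helicase that modulates the other sensors. It was at 6.07, 7.13 and 7.42 in wild-type livers and at 6.76, 7.01 and 6.98 in knockout livers. The low value of wild-type replicate 1 lay under all knockout values, and both other wild-type livers lay above them. The difference was 0.04 (interval -0.71 to 0.80), and the dimmer probe sets of that gene, with means of 3.22 and 2.29, differed by -0.15 and -0.64.

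The transcription factors of the response had the smallest median difference of the 4 roles, with 3 of 5 differences below 0 and a median of -0.067. Stat2, the subunit that carries the activation domain of the ISRE-binding complex, was at 7.42, 7.38 and 7.42 in wild-type and 7.16, 7.33 and 7.27 in knockout livers. The groups did not overlap, yet the difference of -0.15 was small (interval -0.54 to 0.24, limma adjusted p = 0.863), and a second probe set differed by -0.03. Irf9, the DNA-binding subunit of the same complex, was at 8.86, 9.34 and 9.28 against 9.46, 9.24 and 8.57, a difference of -0.07 (interval -0.68 to 0.54). Knockout livers gave both its highest and its lowest value.

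Irf7, the factor that amplifies interferon production, was at 6.59, 7.76 and 7.42 in wild-type and 6.95, 6.62 and 7.38 in knockout livers. Wild-type replicate 1 was again the lowest array, and the difference was -0.27 (interval -1.02 to 0.47). Irf1, an activator induced strongly by interferon gamma, went the other way, at 8.05, 7.07 and 7.50 against 7.60, 7.95 and 7.90. Wild-type replicate 1 was the highest of 6 arrays for that gene, and the difference was 0.27 (interval -0.33 to 0.88). Irf8, a factor of myeloid and B cells, was at 4.98, 5.28 and 5.74 against 5.58, 5.46 and 5.57, a difference of 0.20 (interval -0.31 to 0.72).

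Among the 18 measured effectors 14 had a difference below 0 (77.8%, against 54.6% of all genes), and in 3 all knockout values lay under all wild-type values (16.7%, against 5.48%). Their median difference was -0.213, or -0.46 without wild-type replicate 1 and -0.10 without wild-type replicate 2. Oasl2, an oligoadenylate synthetase-like protein with antiviral activity, was at 5.65, 6.31 and 6.18 in wild-type and 5.19, 5.04 and 5.42 in knockout livers. Every knockout value was lower. The difference was -0.83 (SE 0.23, 1.78-fold lower, limma unadjusted p = 0.00595, adjusted p = 0.705), and -1.03 to -0.70 when any 1 array was left out.

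Its neighbour Oasl1, which represses translation of Irf7 mRNA, was at 6.83, 5.56 and 5.42 in wild-type livers and 6.24, 5.16 and 6.14 in knockout livers. Here wild-type replicate 1 was the highest array, opposite to its place in most effectors, and the difference was -0.09 (interval -1.05 to 0.87). Rtp4, an interferon-induced receptor transporter protein, was at 8.50, 8.92 and 8.48 against 8.26, 8.20 and 8.07. The groups did not overlap. The difference was -0.45 (SE 0.20, 1.37-fold lower, limma unadjusted p = 0.0497, adjusted p = 0.772), and on a dimmer probe set of Rtp4, at 4.19, 5.43 and 5.38 against 5.14, 4.39 and 4.34, the groups overlapped with a difference of -0.38.

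Ifitm3, a membrane protein that blocks virus entry, was at 12.77, 12.98 and 12.77 in wild-type and 12.69, 12.70 and 12.51 in knockout livers. The groups were separate by a narrow margin, with a difference of -0.20 (interval -0.61 to 0.21, limma adjusted p = 0.838). Trim12a, a tripartite motif gene, had the largest difference of the list, -1.35, and the widest interval. Its values were 6.16, 7.51 and 6.16 in wild-type livers and 6.90, 5.92 and 2.94 in knockout livers. The value of knockout replicate 3 set that difference, which was -0.20 without it, and a second probe set at a mean of 3.05 differed by 0.09.

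**Figure D3:**
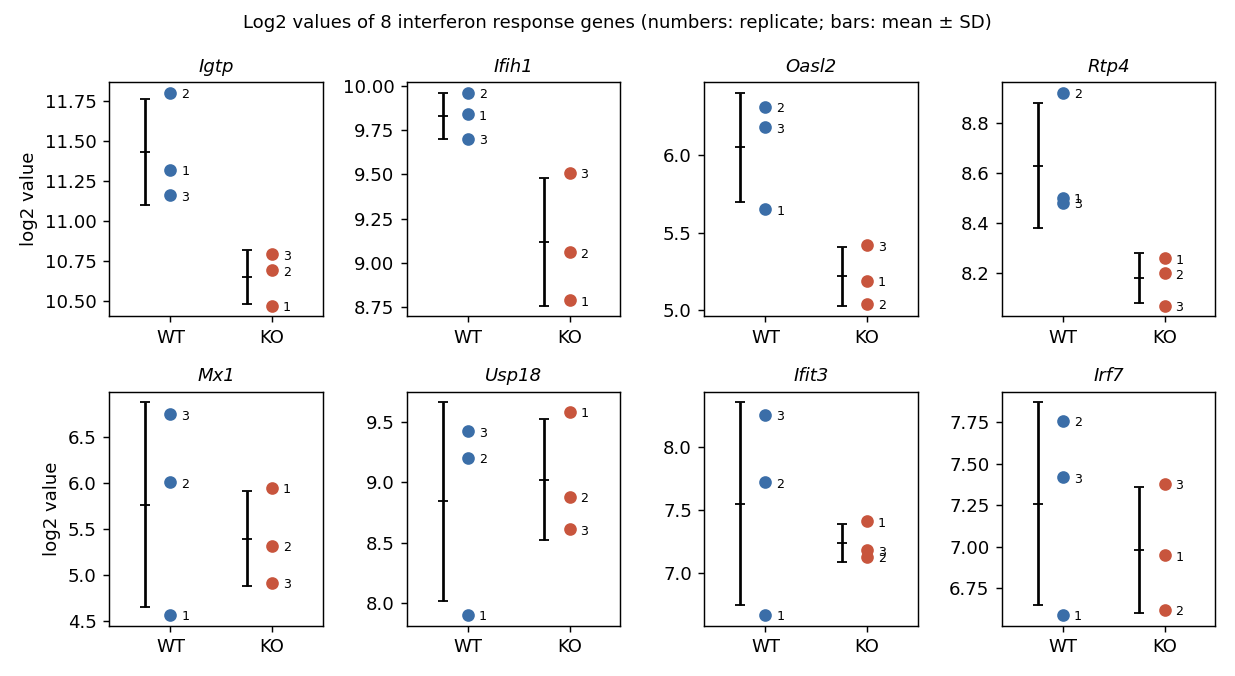
Log2 values of 8 interferon response genes in each wild-type (blue) and knockout (red) liver, with the replicate number beside each point and the mean ± SD of the group to its left (n = 3 each). In the upper row (Igtp, Ifih1, Oasl2, Rtp4) the groups do not overlap; in the lower row (Mx1, Usp18, Ifit3, Irf7) wild-type replicate 1 is the lowest of all 6 livers.

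Mx1, a dynamin-like GTPase that blocks influenza virus, was at 4.57, 6.01 and 6.75 in wild-type and 5.95, 5.32 and 4.92 in knockout livers. Wild-type replicate 1 was the lowest and wild-type replicate 3 the highest array, a range of 2.18 within 1 group. The difference between genotypes was -0.38 (interval -1.54 to 0.79). Mx2, its paralog, was at 3.88, 5.77 and 4.94 against 4.48, 4.21 and 4.84, with a difference of -0.36 (interval -1.33 to 0.62).

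Usp18 removes ISG15 from proteins and restrains signalling at the type I receptor. It was at 7.90, 9.20 and 9.42 in wild-type and 9.58, 8.88 and 8.61 in knockout livers, with wild-type replicate 1 lowest and knockout replicate 1 highest. The difference was 0.19 (interval -0.76 to 1.13). The probe set shared by Isg15, the ubiquitin-like protein itself, and Gm9706 read 7.33, 8.54 and 9.08 against 9.01, 7.56 and 7.83, a difference of -0.18. It had the same lowest liver, and it was not part of the test.

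The Ifit genes encode proteins that bind foreign RNA and lie close together in the gene order. Ifit1 was at 8.58, 9.74 and 9.54 in wild-type and 9.20, 8.69 and 8.50 in knockout livers, a difference of -0.49 (interval -1.24 to 0.26). Ifit3 was at 6.67, 7.72 and 8.25 against 7.41, 7.13 and 7.18, a difference of -0.31 (interval -1.13 to 0.52). Ifit2, in whose windows no ISRE core was found, was at 5.58, 6.39 and 6.10 against 6.17, 5.86 and 5.46, a difference of -0.20 (interval -0.82 to 0.42). In all 3 genes wild-type replicate 1 lay under both other wild-type livers, and in Ifit1 and Ifit3 those lay above every knockout liver.

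Rsad2, which encodes the antiviral enzyme viperin, was at 8.64, 9.89 and 9.85 in wild-type and 9.23, 9.22 and 9.26 in knockout livers. On this probe set the knockout livers were within 0.05 of each other and lay between wild-type replicate 1 and the other wild-type livers. The difference was -0.22 (interval -0.97 to 0.52), while another probe set of Rsad2, with a mean of 7.28, differed by 0.19. That probe set read 6.75, 7.46 and 7.34 in wild-type and 8.22, 7.27 and 6.64 in knockout livers. There the knockout livers were not close to each other (SD 0.79, against 0.38 in wild-type livers). Eif2ak2, the RNA-activated kinase PKR that stops translation, was at 7.45, 8.14 and 8.04 against 7.51, 7.64 and 7.59, a difference of -0.29 (interval -0.80 to 0.22). A second probe set of Eif2ak2, with a mean of 7.51, read 7.26, 7.56 and 7.86 against 8.21, 7.44 and 6.76. It differed by -0.09.

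Bst2, the tetherin that holds budding virus at the cell surface, was at 9.69, 10.37 and 10.63 in wild-type and 10.56, 10.15 and 10.38 in knockout livers. Its difference was 0.14 (interval -0.47 to 0.74), with wild-type replicate 1 lowest. Ifi35, an interferon-induced leucine zipper protein, had the largest difference above 0, 0.37 (interval -0.28 to 1.02), from 7.05, 7.85 and 7.94 to 8.18, 7.63 and 8.14. Wild-type replicate 1 set most of it, since the difference was 0.09 without that liver. Tap1, which pumps peptides to MHC class I, differed by -0.10 (interval -0.69 to 0.49). Parp14, an ADP-ribosyltransferase, differed by -0.19 (interval -0.72 to 0.34) and Isg20, an RNA exonuclease, by 0.16 (interval -0.34 to 0.67).

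Across the list, wild-type replicate 1 was the lowest wild-type liver in 23 of 32 genes (71.9%), against 35.7% of all genes tested. Among effectors it was the lowest in 16 of 18 (88.9%), the exceptions being Oasl1 and Rtp4. The mean of the other wild-type livers exceeded it by a median of 0.50 log2 units over the 32 genes and 0.67 over the effectors, against 0.02 over all genes. It did so by more than 1 log2 unit in 8 genes (25%), against 1.27% of all genes. These were Mx1 (1.81), Mx2 (1.48), Usp18 (1.41), Ifit3 (1.31), Rsad2 (1.23), Dhx58 (1.21), Ifit1 (1.06) and Irf7 (1.01). The list was thus more variable among wild-type livers than all genes tested, with a median SD of 0.37 against 0.23. Among knockout livers the median SD was 0.30 against 0.28. The wild-type median SD of cell type markers ran from 0.12 (hepatocyte) to 0.47 (cholangiocyte), with 0.37 for lymphocyte markers. The cholangiocyte and lymphocyte genes were dim, with means of 4.29 to 5.24 and 4.09 to 5.78, against 4.69 to 12.74 for the list. It was 0.29 for 35 other interferon-induced genes and 0.22 for 10 genes of MHC class I presentation, below that of the list. Wild-type replicate 1 was the lowest wild-type liver in 77.8% of hepatocyte markers, 66.7% of acute phase genes and 0% of the 3 neutrophil markers. The share was 71.4% for the 35 other interferon-induced genes. Set against each gene's mean over 6 arrays, that liver deviated on average by -0.34 in effectors and -0.19 in other interferon-induced genes. The deviation was -0.08 in hepatocyte markers, -0.03 in acute phase genes and -0.27 in neutrophil markers. These figures describe 3 livers and carry no test.

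**Figure D4:**
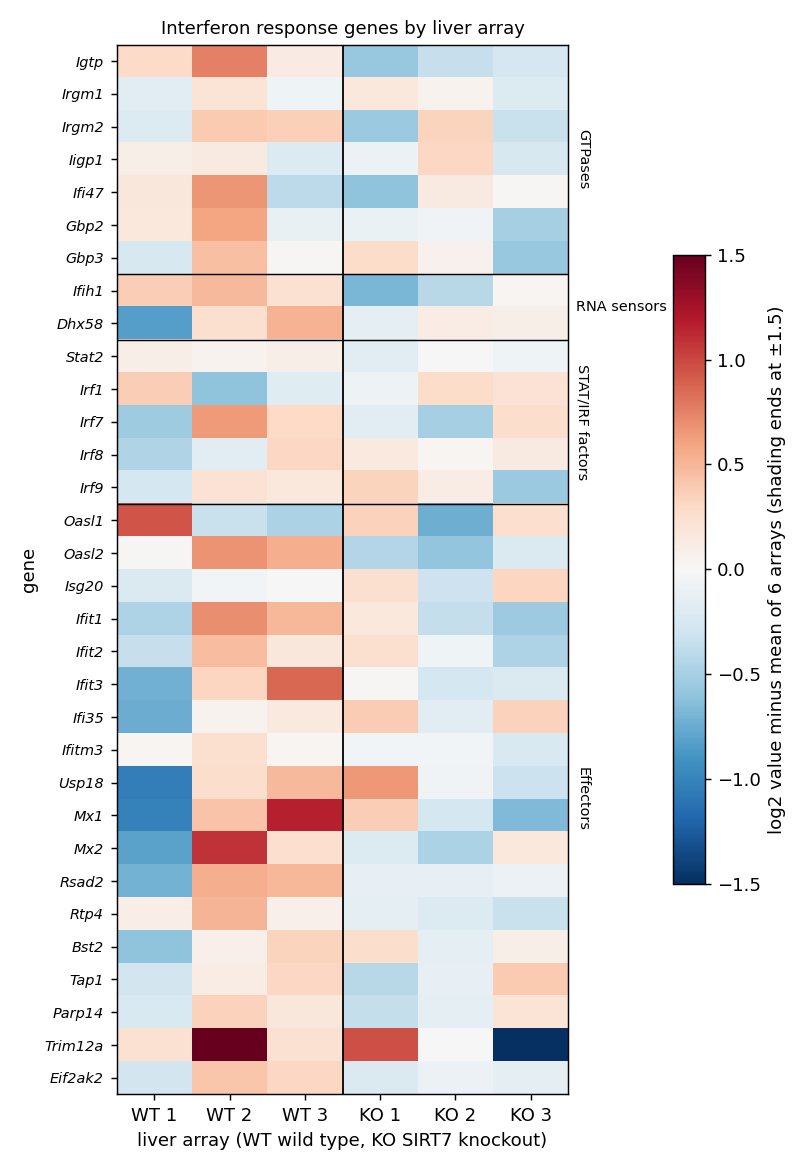
Log2 value minus the mean of 6 arrays for the 32 measured interferon response genes (rows, by role) in each liver (columns), red above and blue below the mean, with shading that ends at ±1.5. Wild-type replicate 1 is blue in most effector rows, among them Ifit1 and Bst2 but not Ifitm3 or Rtp4. Wild-type replicate 2 is red in the GTPase rows and in most effector rows.

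Wild-type replicate 1 was singled out because many of these genes were low in it, so leaving it out raises their wild-type mean by construction, and the counts without it support nothing. With it left out, 9 of the 32 genes (28.1%) were lower in knockout livers at an unadjusted limma p under 0.05, against 1.92% of all genes, and 0 of them passed the adjusted threshold. They were Oasl2 (-1.03, limma adjusted p = 0.804), Mx1 (-0.98), Mx2 (-0.85), Ifit1 (-0.84), Igtp (-0.83), Ifit3 (-0.74), Ifih1 (-0.71), Rsad2 (-0.63) and Eif2ak2 (-0.50), the last 8 at an adjusted p of 0.962. The median difference of the list was then -0.36, and it was -0.05 without wild-type replicate 2. The choice of wild-type livers thus moved the median of the list by more than 1.5 times in both directions.

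Leaving out any other array also left 0 of the 32 genes past limma's adjusted threshold, where the share of all genes called was 0.0839% with wild-type replicate 2 left out and 0.455% with wild-type replicate 3 left out. It was 0.0599% when knockout replicate 1 was dropped and 0.012% when knockout replicate 2 or knockout replicate 3 was. At the unadjusted threshold 3 genes were lower without wild-type replicate 2 (against 1.56% of all genes) and 5 without wild-type replicate 3 (5.66%). Dropping knockout replicate 1 gave 4 (2.05%), as did dropping knockout replicate 2 (1.95%), and dropping knockout replicate 3 gave 3 (11%). Of the 14 alternatives tried, only array weights changed the calls. With them limma called Oasl2, Igtp, Ifih1 and Rtp4 lower, 4 of 32 genes (12.5%), but 13.1% of all genes were called lower as well, so the share of the list was near that of all genes. At the unadjusted threshold 9 genes were lower with array weights, against 23.7% of all genes, and 1 was higher, against 15.5%. With the replicate number as a block 0 genes were called, against 0.024%, and 3 were lower at the unadjusted threshold, against 2.23%.

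The interferon genes themselves were at the dim end of the arrays. All 10 ligand genes with a probe set of 1 symbol, of 19 listed, lay under the expression filter of 4, with means between 1.64 and 3.49. Ifnb1 lay between 1.95 and 2.44 and Ifng between 1.89 and 2.42 over the 6 livers. The values carry no detection call, so no level can be given for either.

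Of 8 receptor and kinase genes tested, 0 passed limma's adjusted threshold and 1 was higher at an unadjusted p under 0.05, where the shares of all genes were 0.024% and 3.04%. That was Ifngr2, the signalling chain of the interferon gamma receptor, at 5.35, 5.24 and 5.72 in wild-type and 6.55, 5.94 and 5.77 in knockout livers. The groups met without overlapping, and the difference was 0.65 (SE 0.25, limma unadjusted p = 0.0308, adjusted p = 0.769). Ifngr1, the ligand-binding chain, differed by -0.04 (SE 0.27), and the type I receptor chains Ifnar1 and Ifnar2 by 0.26 (SE 0.28) and -0.30 (SE 0.19). Of the receptor kinases, Jak1 differed by -0.46 (SE 0.33) and Tyk2 by less than 0.01 (SE 0.32).

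Adaptors and kinases that lead from sensors to interferon (10 genes tested, median -0.017) and inhibitors of the response (8 genes, median -0.039) held 0 genes past either threshold with limma. Of all genes 0.024% passed the adjusted and 6.46% the unadjusted threshold, in either direction. Tank, a scaffold of the kinase that activates IRF3, differed by -0.50 (SE 0.22) and Mavs, the mitochondrial adaptor of the RNA sensors, by -0.33 (SE 0.39). Of the inhibitors Socs3 differed by -0.58 (SE 0.30). Cish was at 4.64, 7.32 and 8.32 in wild-type and 3.36, 7.08 and 3.85 in knockout livers. The livers with high and low Cish occurred in both genotypes, and its difference of -1.99 had an SE of 1.11.

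Genes of MHC class I presentation, which interferon gamma induces, had a median difference of 0.005 over 10 genes, with 5 above and 5 below 0. Past the adjusted and unadjusted limma thresholds were 0 of them, against 0.024% and 6.46% of all genes. The immunoproteasome gene Psmb9 was at 7.64, 8.02 and 8.42 in wild-type and 9.07, 8.29 and 8.48 in knockout livers. The groups overlapped by a narrow margin and the difference was 0.59 (SE 0.28). Psmb8 differed by 0.24 (SE 0.22), and B2m, the light chain of MHC class I, by -0.02 (SE 0.18). MHC class II genes differed by a median of 0.170 (5 genes, 4 above 0).

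Among 35 other interferon-induced genes the median difference was -0.053, with 22 below 0 and 13 above. Limma called 0 at the adjusted threshold, and 1 was lower at an unadjusted p under 0.05 (2.86%), a share below the 3.42% of all genes. That gene was Cmpk2, a mitochondrial nucleotide kinase, at 6.75, 7.50 and 7.24 in wild-type and 6.54, 6.61 and 6.11 in knockout livers. The groups did not overlap, and the difference was -0.75 (SE 0.25, limma unadjusted p = 0.0158, adjusted p = 0.746). Cxcl10, a chemokine that draws T cells, differed by -0.51 (SE 0.24), Trim21, an antibody receptor and ubiquitin ligase, by -0.73 (SE 0.35) and Sp100, a nuclear body protein, by 0.53 (SE 0.28).

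Set against its own mean in the 6 arrays, a gene of these 35 deviated on average by -0.19, 0.12 and 0.16 in wild-type replicates 1, 2 and 3, so wild-type replicate 1 was lowest there too. In the knockout replicates it was 0.07, -0.06 and -0.10. For the 18 effectors the same measure was -0.34, 0.41 and 0.31 in wild-type and 0.09, -0.23 and -0.25 in knockout livers. For the GTPases it was 0.02, 0.46 and -0.04 in wild-type and -0.21, 0.07 and -0.29 in knockout livers, so their high liver was wild-type replicate 2 alone.

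Markers of other cells and of the acute phase are given beside these values. The 18 acute phase genes had a mean deviation of 0.55 in wild-type replicate 2, the liver with the highest GTPase values. It was -0.03 in wild-type replicate 1, -0.01 in wild-type replicate 3 and -0.28 to -0.10 in knockout livers. Of these genes 14 had a difference between genotypes below 0 (77.8%, against 54.6% of all genes), and Saa1, Saa2 and Orm3 were lower at an unadjusted limma p under 0.05 (16.7%, against 3.42%). The summed linear level of the 12 tested Kupffer cell and macrophage markers, of 13 listed, was 13.44 to 13.59 on the log2 scale in wild-type and 13.53 to 13.69 in knockout livers, with 10 of the 12 differences above 0. Thus 16.7% of these markers had a difference below 0, against 54.6% of all genes. C1qa, by 1.05 (SE 0.35), and Cd68, by 0.50 (SE 0.20), were higher at an unadjusted limma p under 0.05. These were 2 of the 12 markers (16.7%), against 3.04% of all genes. In both, all knockout values lay above all wild-type values, against 4.27% of all genes. Neither passed the adjusted threshold. The brightest of the 12, C1qb, differed by 0.08 (SE 0.22), and Csf1r was lower, by -0.63 (SE 0.32). For the 9 tested lymphocyte markers the sums were 8.13 to 8.45 and 7.68 to 9.03, and Cd3g, Ncr1 and Nkg7 were under the filter. For the 3 tested neutrophil markers they were 8.81 to 9.63 and 9.04 to 10.42, with Mpo, Elane, Ngp and Ltf under the filter. Of 9 dendritic cell markers 2 were tested, and Flt3, Itgax, Xcr1, Cd209a and Ly6d were under the filter. The mean deviation of Kupffer cell markers was -0.19, -0.08 and -0.03 in wild-type replicates 1, 2 and 3, a smaller spread than that of the effectors, and 0.37, -0.06 and -0.02 in the knockout livers. Of the 8 stellate cell markers 6 had a difference below 0, and in 3 (37.5%, against 5.48% of all genes) all knockout values lay under all wild-type values. Their summed level was 11.81 to 12.27 in wild-type and 11.76 to 12.11 in knockout livers, and Col1a2 differed by -0.60 (SE 0.21). The sums of the 9 endothelial markers were 11.83 to 11.94 and 11.77 to 11.88, and those of the 3 tested cholangiocyte markers 6.32 to 6.77 and 6.07 to 6.42, where Sox9 differed by -0.91 (SE 0.31). Those of the 2 tested erythroid markers were 9.98 to 10.41 and 9.65 to 10.52, and Slc4a1 differed by 1.32 (SE 0.38). Col1a2, Sox9 and Slc4a1 had an unadjusted limma p under 0.05 and did not pass the adjusted threshold. The part of these cells and of the acute phase in the interferon gene values was not tested.

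**Figure D5:**
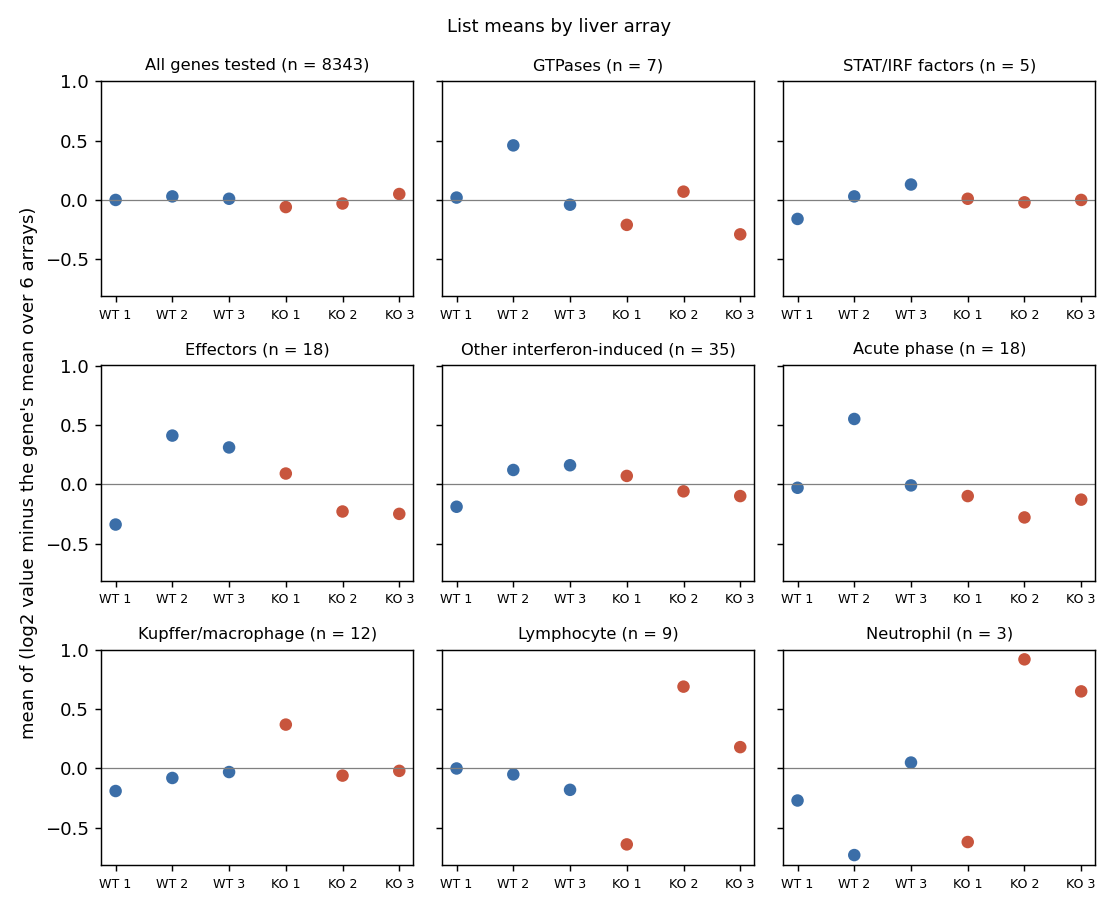
Mean over each gene list of the log2 value minus the gene's mean over 6 arrays, for wild-type (blue) and knockout (red) livers, with the number of genes in each title. Effectors and other interferon-induced genes are lowest in wild-type replicate 1, GTPases and acute phase genes are highest in wild-type replicate 2, and neutrophil and lymphocyte markers are highest in knockout replicate 2.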

How the data were processed

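The submitters' processing notes name GCRMA 2.20.0 and R 2.11.1, without settings. The values the authors deposited, 1 for each probe set on each array, were taken as log2 from their range. Background modelling compresses dim values, and precision is limited by having 3 arrays a group. The platform's annotation gave the gene symbols (20380 of 22626 probe sets with 1 symbol, 691 with several, 1555 with none or not listed). Each gene was represented by its brightest probe set, and genes with a mean log2 value under 4 were left out. Knockout was compared with wild type over all 8343 genes with limma 3.58.1 under R 4.3.3 (a linear model with moderated variances, 2-sided, Benjamini-Hochberg over all genes, threshold 0.05), and the fit was tested on simulated data. Errors are SD over 3 livers or limma's SE, and intervals are 95%. The genes and lists were chosen with earlier results of these data known. Values per array are given for up to 6 genes of smallest p per role, for every gene with separate groups and for the families compared; of other lists, for up to 4 genes of smallest p and a few fixed ones. The per-array values of Usp18, Rsad2 and Bst2, outside that rule, were picked after they were seen. Same-numbered samples did not deviate together (r of -0.089, -0.091 and -0.194), so the fit has no block. A protein comparison was not run. Alternatives were other filters, probe set rules, quantile normalization, array weights, another variance prior, a replicate block and leaving out each array.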

Additional observations from a re-analysis of the deposited data

How the results depend on the processing

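Of the 32 genes 18 kept the sign of their difference under all 14 alternatives that could be fitted to them, Igtp, Ifih1, Oasl2 and Rtp4 among them, and 14 did not. A filter at a mean of 6 leaves out the dimmer genes, among them Oasl2, Mx1 and Mx2. Array weights, which ran from 0.31 for knockout replicate 3 to 6.12 for knockout replicate 2, called the 4 genes with the lowest p lower (Oasl2 -1.08, Igtp -0.94, Ifih1 -0.84, Rtp4 -0.57), and 1748 of all 8343 genes in either direction. With these weights 9 of the 32 genes were lower and 1 higher at an unadjusted p under 0.05, and of the 76 other pathway genes 12 were called (15.8%, against 21% of all genes) and 22 had an unadjusted p under 0.05 (28.9%, against 39.2%), where the unweighted fit gave 2 (2.63%, against 6.46%). The sign turned for Irgm1 (-0.05), Iigp1 (0.17), Irf9 (0.01), Isg20 (-0.17), Usp18 (-0.0032) and Bst2 (-0.05). Quantile normalization turned Irgm1 (-0.01) and Iigp1 (0.02). The mean of probe sets turned Iigp1 (0.05), Dhx58 (-0.25) and Rsad2 (0.10), and the most variable probe set turned Rsad2 (0.19) and gave 5 of 71 other pathway genes at an unadjusted p under 0.05 (7.04%, against 6.30% of all genes). The cause was not tested.

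Leaving out 1 array gave 0 called genes throughout, and 3 to 9 lower at an unadjusted p under 0.05. Of the 76 other pathway genes it gave 0 to 11 at that level (0% to 14.5%, against 3.03% to 16.6% of all genes). The median difference lay between -0.36 and -0.05 for the whole list, -0.44 and -0.04 for GTPases, -0.54 and -0.22 for sensors, -0.46 and -0.10 for effectors and -0.15 and 0.19 for transcription factors. Dropping wild-type replicate 3 gave the 11 (all genes 11.8%) and dropping wild-type replicate 2 the 0 (3.03%), and the other arrays gave 4 to 10. Ranges that crossed 0 were those of Irgm1 (-0.07 to 0.11), Iigp1 (-0.17 to 0.10), Gbp3 (-0.33 to 0.09), Dhx58 (-0.36 to 0.32), Irf9 (-0.25 to 0.19), Oasl1 (-0.35 to 0.36), Ifit3 (-0.74 to 0.05), Usp18 (-0.28 to 0.48), Mx1 (-0.98 to 0.11), Mx2 (-0.85 to 0.10), Bst2 (-0.13 to 0.34) and Tap1 (-0.32 to 0.08). The GTPase median reached -0.04 without wild-type replicate 2, and the factor median 0.19 without knockout replicate 3.

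With the replicate number as a block, 0 genes were called and 3 were lower at an unadjusted p under 0.05, so the block changed no call. With no detection calls, values near the filter cannot be told from background.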

Other observations

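Probe sets that carry several symbols were outside the test and are given as values. The probe set shared by Tgtp1 and Tgtp2, effector GTPases of the same family as Iigp1, read 7.97, 8.68 and 8.42 in wild-type livers and 8.61, 8.62 and 8.13 in knockout livers. Wild-type replicate 1 was the lowest liver there too, and the genotypes differed by 0.10. The probe set shared by Gbp4 and Gbp8 differed by -0.18, and that shared by Psme2 and Psme2b, a regulator of the immunoproteasome, by 0.10. Of the probe sets shared by H2-T23, a nonclassical MHC class I gene, and H2-T-ps, a dim one read 3.86, 3.98 and 3.25 in wild-type and 4.83, 4.93 and 5.59 in knockout livers. The groups did not overlap there and differed by 1.42, while the bright one, with a mean of 11.78, differed by -0.08. The probe sets shared by H2-DMb1 and H2-DMb2 differed by 0.45 and 0.51, that of H2-Q7 and H2-Q9 by 0.24, and that of Ifi205 and Ifi211 by -0.44. Those that list Ifi203 differed by -0.31, -0.01 and 0.28.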
